A study of Rattus norvegicus with 24 samples.

Results

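Hba-a1, Hbb-b2, Alas2 and Slc4a1 are 4 genes of red blood cells and their precursors (hereafter the members), and they were followed here across areas of healing skin. They were found by their names among the 19962 gene targets of the assay, and all 4 were present once. They were selected on measured values, namely the lower haemoglobin signal of hydrogel-treated wounds against Sham in these data. Their levels by treatment are therefore given as a description, without a test against Sham. The 24 areas came from skin wounds of 5-week-old male SD rats made diabetic with STZ. Each wound was a full-thickness defect of 8 mm, held open with a splint, and was collected on day 7. Every group thus shared diabetes, the wound and its splint, and the groups were Sham, a hydrogel alone (Gel) and a hydrogel named CuNZ@Gel, whose composition the labels do not spell out. Each treatment had 2 numbered specimens, each specimen 2 regions, and each region 2 segments drawn on immunofluorescence, which gave 8 areas a treatment. The labels do not name the segment markers, and they do not say that the numbered specimens were separate animals, so p-values measure only the spread between these specimens, which may be technical.

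Mature mammalian red cells have no nucleus and carry mostly haemoglobin, a tetramer of alpha and beta chains that each hold a heme. Young red cells (reticulocytes) leave the marrow with globin messenger RNA still in them, and lose it as they mature. Heme is made in a pathway that starts with an aminolevulinate synthase, whose erythroid form is encoded by Alas2. The anion exchanger band 3, encoded by Slc4a1, spans the red cell membrane and ties it to the skeleton beneath. In a wound, blood enters through vessels and through bleeding, and macrophages take up haemoglobin and store its iron in ferritin. In areas that hold many cell types, fewer cells of a type and less RNA per cell cannot be told apart.

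The deposited signal was counts scaled by area, with an upper quartile of 12.1 to 12.3 in every area. Whole counts could be recovered for at least 99.98% of values (within 0.01 of a count), and the recovered totals ran from 86386 to 1476512 per area, with a median of 340374. Segment 2 was the shallower segment in 11 of 12 regions, with a median total of 170042 against 533137 in Segment 1. A background level was set in each area at the value that 99% of 1116 receptor targets of smell (odorant and pheromone receptors, genes of the nose) did not exceed, and it lay between 11.4 and 21.6 signal units. Of the gene targets, 5554 were above this level in at least 4 areas. A target below it may be low in RNA or poorly read by its probe, which cannot be told apart here.

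The alpha-globin gene Hba-a1, which encodes the alpha chain of haemoglobin, was among the brightest targets of every Sham area and near the background of most hydrogel areas. In Sham specimen 1 its signal was 1752 and 720.5 in Segments 1 and 2 of region 1, and 1030 and 1558 in those of region 2. In Sham specimen 2 it was 1585 and 568.2 in region 1, and 823.1 and 654.1 in region 2. These values placed Hba-a1 between the 9th and the 39th brightest target of each Sham area. In Gel specimen 1 the signal was 17.0 and 12.3 in region 1, and 66.8 and 21.6 in region 2, and in Gel specimen 2 it was 22.4 and 24.5 in region 1, and 27.0 and 63.4 in region 2. In CuNZ@Gel specimen 1 it was 13.1 and 18.4 in region 1, and 35.6 and 10.5 in region 2, and in CuNZ@Gel specimen 2 it was 185.8 and 23.2 in region 1, and 23.8 and 21.8 in region 2. No hydrogel area reached the lowest Sham area, and the value of 185.8, the highest of the hydrogel areas, stood well apart from the other 15. The median rank of Hba-a1 was 2408.5 in Gel and 2666 in CuNZ@Gel, and its signal was above the background level in 7 of 8 areas of each. Averaged over specimens, Sham had a signal of 1086 ± 253, Gel of 31.9 ± 3.48 and CuNZ@Gel of 41.5 ± 31.3 (SD, n = 2 specimens each).

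On the log2(signal + 1) scale, on which all differences below are given, Hba-a1 was lower than in Sham by a difference of -5.15 in Gel and -5.20 in CuNZ@Gel. Among 19728 targets kept for fitting, those brighter than the negative probe in 4 or more areas, these were the second lowest and the lowest difference. The ratio of medians was 39.5 for Sham over Gel and 41.2 for Sham over CuNZ@Gel. As a stricter figure, the lowest Sham area was 8.51 times the highest Gel area and 3.06 times the highest CuNZ@Gel area. Recovered counts gave the same order, from 235 to 6589 counts per area in Sham, 9 to 98 in Gel and 6 to 197 in CuNZ@Gel. Scaled to the total count of an area in CPM, the median of Sham was 2372, that of Gel 73.2 and that of CuNZ@Gel 69.4. Without the CuNZ@Gel area at 185.8, an alternative added after the values were seen, the difference of CuNZ@Gel from Sham was -5.57.

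The beta-globin gene Hbb-b2, which encodes the beta chain, had the same split between Sham and the hydrogels at a much dimmer level. In Sham specimen 1 its signal was 42.6, 27.6, 23.8 and 41.7, and in Sham specimen 2 it was 42.3, 14.3, 18.6 and 18.4, in the order used for Hba-a1. In Gel specimen 1 it was 1.89, 4.09, 6.13 and 3.38, and in Gel specimen 2 it was 1.69, 4.09, 2.45 and 12.3. In CuNZ@Gel specimen 1 it was 2.04, 6.13, 5.52 and 3.50, and in CuNZ@Gel specimen 2 it was 12.3, 4.09, 3.83 and 6.81. The groups did not overlap, though the margin was small, with the lowest Sham area at 1.17 times the highest area of either hydrogel. Hbb-b2 passed the background level in 7 of 8 Sham areas and in 0 of 16 hydrogel areas. In the hydrogel areas it rested on 2 to 13 counts, against 7 to 176 in Sham, so its level there was not measurable with any precision. In 6 of 8 Gel areas and 4 of 8 CuNZ@Gel areas it was at or below the median of the receptor targets. The mean over specimens was 28.7 ± 7.44 for Sham, 4.50 ± 0.885 for Gel and 5.52 ± 1.73 for CuNZ@Gel (SD, n = 2 specimens each). The log2 differences from Sham were -2.52 in Gel and -2.21 in CuNZ@Gel, the 23rd and the sixth lowest of all targets kept. Their size changed with the treatment of background, to -3.25 and -3.03 when the receptor median of each area was subtracted first.

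Across all targets kept, 46 had every Sham area above all 16 hydrogel areas, which is 0.233% of 19728. Hba-a1 was the second of these by the gap between the lowest Sham and the highest hydrogel area, after the class II antigen presentation gene H2-Ab1, and Hbb-b2 was the 22nd. Since the members were chosen for this contrast, nothing is read from their place in it.

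**Figure D1:**
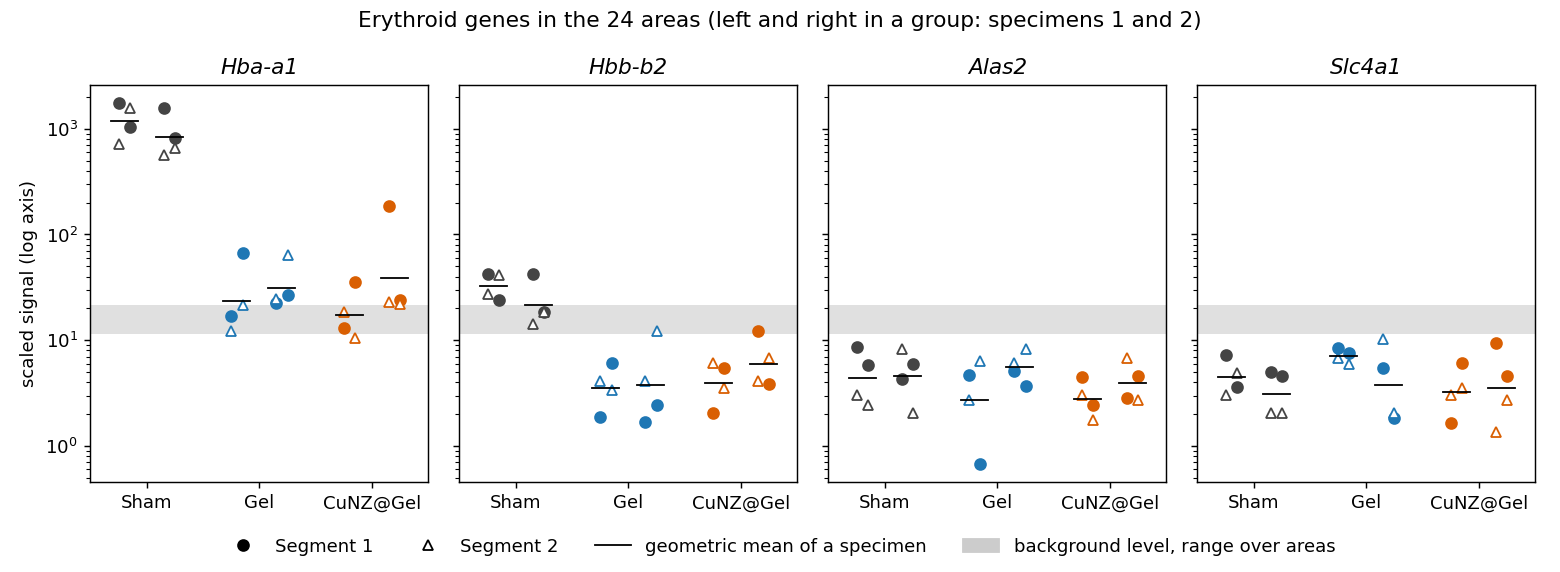
Scaled signal (log axis) of Hba-a1, Hbb-b2, Alas2 and Slc4a1 in each of 24 areas, by treatment, with specimen 1 on the left and specimen 2 on the right of each group; circles are Segment 1, triangles Segment 2, bars the geometric mean of a specimen's 4 areas. The grey band spans the background level of the areas (11.4 to 21.6), above which Hba-a1 lay in 8 of 8 Sham areas while Alas2 and Slc4a1 were above their own area's level in none.

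The erythroid heme enzyme gene Alas2 and the band 3 gene Slc4a1 did not share this pattern, and neither was above the background level in any of 24 areas. Alas2 ranged from 2.04 to 8.66 in Sham (median 5.05), from 0.681 to 8.18 in Gel (median 4.90) and from 1.75 to 6.81 in CuNZ@Gel (median 2.95). Slc4a1 ranged from 2.04 to 7.21 in Sham (median 4.08), from 1.84 to 10.2 in Gel (median 6.37) and from 1.36 to 9.43 in CuNZ@Gel (median 3.29). The 3 treatments overlapped for both genes. The 2 genes rested on 1 to 18 and 1 to 21 counts per area, and a value of 1 count was the lowest the files hold. The log2 differences from Sham were -0.12 in Gel and -0.36 in CuNZ@Gel for Alas2, and 0.41 and -0.08 for Slc4a1. The difference of Alas2 in Gel ran from -0.47 to 0.23 over the alternative settings, so it had no settled sign. At levels below background a difference between treatments in these 2 genes was not detectable, which does not show that there was none.

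Alpha and beta globin chains are made in balance in red cells, and here both targets varied together from area to area. The correlation of log2 values over the 8 areas of a treatment was 0.93 for Sham, 0.71 for Gel and 0.83 for CuNZ@Gel, where areas of a specimen share their section and depth. In the 16 hydrogel areas the Hbb-b2 values lay below background, so the Sham areas are the better measured of these. With each treatment mean subtracted, Hbb-b2, which counted as above background through its Sham areas alone, was the target closest to Hba-a1 among 5553 targets above background, and Hba-a1 the closest to Hbb-b2 (r = 0.78 over 24 areas, 0.76 with each specimen mean subtracted). The next closest to Hba-a1 were Ppm1k (0.68), Cbarp (0.67), Trmt1 (0.65), Ppil4 (0.62), Tmem181a (0.61), Efna4 (0.61) and B3gnt2 (0.60). Those next to Hbb-b2 were Pam16 (0.62), Lsp1 (0.60), Msi1 (0.56), Tk2 (0.55), Orai1 (0.55), Ffar2 (0.54) and Zfp142 (0.53). Most of these targets are dim, and the closest of many candidates is high by selection. Against Hba-a1, r was -0.07 for Alas2 and 0.39 for Slc4a1, both below background in every area.

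The ratio of Hba-a1 to Hbb-b2 counts was 26.1 to 44.3 in Sham areas (median 38.6), 3 to 13.3 in Gel (median 7.69) and 3 to 15.2 in CuNZ@Gel (median 5.93). The Sham areas thus had the higher ratios without overlap. In the hydrogel areas the Hbb-b2 counts were near those of the receptor targets, and after the receptor median was subtracted the ratio of sums was 43.2 in Sham and 25.7 in CuNZ@Gel, while the Gel sum of Hbb-b2 left nothing to divide by. The ratio is not a chain ratio, since the probes of different targets bind and count differently and were not scaled for it.

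**Figure D2:**
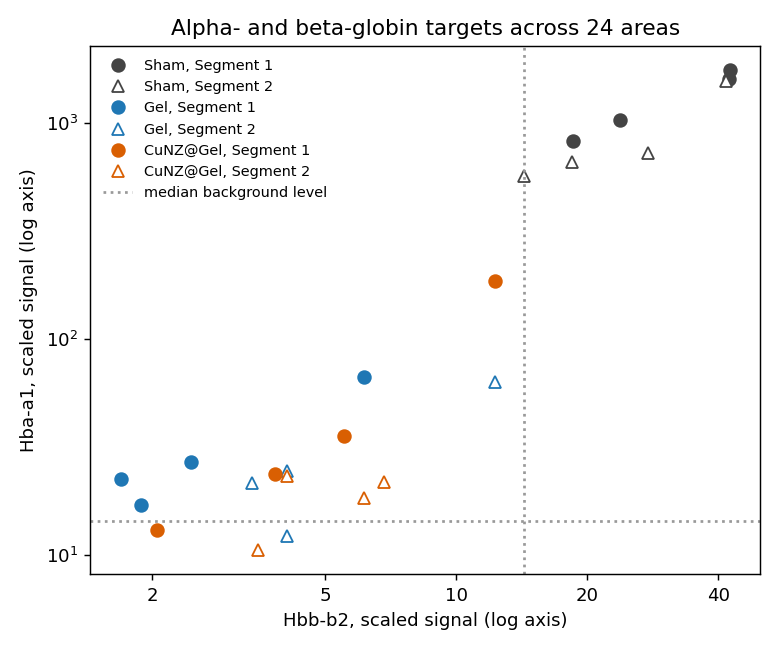
Scaled signal of Hba-a1 against Hbb-b2 (both axes log) in 24 areas, coloured by treatment, with filled circles for Segment 1 and open triangles for Segment 2; dotted lines mark the median background level. The 8 Sham areas lie apart at the upper right, and the CuNZ@Gel area at 185.8 for Hba-a1 also has that treatment's highest Hbb-b2, 12.3.

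The targets carry mouse-style symbols, and rats have several copies of each globin gene. All 4 symbols matched a rat gene of the same name in RefSeq (GRCr8), which lists 3 alpha genes named Hba on chromosome 10 and 4 beta genes named Hbb on chromosome 1. The files hold 1 alpha target of that name and 2 beta targets, Hbb-b2 and Hbb-b1, and Hbb-b1 was above background in 0 of 24 areas. Which rat copies each probe reads is not given in the sources used here, so the levels are those of the probe. The rat promoters of the 2 globin genes that varied together are shown because they carry the short motifs that adult globin promoters are known for. Each is the 250 bases before the gene's start, on the minus strand of GRCr8, from chr10:15842581-15842830 for Hba-a1 and chr1:167656964-167657213 for Hbb-b2. Capitals mark matches, found on either strand, to 4 kinds of motif that did not overlap each other. The letters searched for the GATA factors, which regulate red cell genes, were AGATAA and, in its place, TGATAA. The motif bound by the Klf1 family was searched as CACCC. The box bound by the general factor NF-Y was searched as CCAAT. The box near the start of transcription was searched as TATAAA and, as a variant known from some globin genes, CATAAA.
Hba-a1: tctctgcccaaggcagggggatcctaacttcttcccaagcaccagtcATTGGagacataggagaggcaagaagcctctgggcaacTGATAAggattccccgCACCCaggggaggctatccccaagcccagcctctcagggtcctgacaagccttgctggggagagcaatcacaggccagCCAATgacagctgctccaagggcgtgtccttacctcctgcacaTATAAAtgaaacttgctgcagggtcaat
Hbb-b2: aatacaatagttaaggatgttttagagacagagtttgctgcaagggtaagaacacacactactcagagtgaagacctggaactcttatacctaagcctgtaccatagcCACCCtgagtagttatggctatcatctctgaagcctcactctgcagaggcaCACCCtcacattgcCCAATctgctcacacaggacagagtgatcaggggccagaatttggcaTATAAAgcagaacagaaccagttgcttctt
Both windows held the letters of the start box, 28 bases before the start in Hba-a1 and 30 in Hbb-b2, and those of the NF-Y box, at 71 and 77 bases. Both held those of the Klf motif, at 149 bases in Hba-a1 and at 142 and 91 bases in Hbb-b2. The GATA letters searched were found in Hba-a1 alone, at 165 bases, and Hba-a1 also held the NF-Y letters on the other strand at 203 bases. Forms of the GATA motif that end in G were not searched, and the Hbb-b2 window holds 1 of them on the other strand, TGATAG. The windows are therefore not shown to differ in GATA motifs. Of 33469 RefSeq promoter windows of this length, 16.9% held the GATA letters, 49.2% those of the Klf motif, 34.0% those of the NF-Y box and 22.0% those of the start box, so each match alone is common. The Hba-a1 window was 96.4% identical to that of its copy Hba-a2, and the Hbb-b2 window 97.2% identical to that of Hbb-b1, over their alignments. These matches are letters in a sequence, and no binding was measured.

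CuNZ@Gel and Gel were compared directly, a contrast that was not used to choose the genes. Hba-a1 did not pass the threshold of 0.05 in limma with Benjamini-Hochberg adjustment over all 19728 targets, of which 0.943% passed. Its difference of CuNZ@Gel minus Gel was -0.05 (SE 0.38, 95% interval -0.96 to 0.85, adjusted p = 0.999 in limma), with 2 specimens a group. The differences of 0.31 for Hbb-b2, -0.24 for Alas2 and -0.49 for Slc4a1 are between values below background in all 16 hydrogel areas, and nothing is read from them. The interval allows a difference of nearly 1 log2 unit in Hba-a1 in either direction, so the 2 hydrogels are not shown to be alike. The sign for Hba-a1 was not settled: the difference ran from -0.61 without CuNZ@Gel specimen 2 to 0.62 with DESeq2, was 0.51 without CuNZ@Gel specimen 1 and 0.14 without Gel specimen 2, and was -0.42 without that area (adjusted p = 0.587 in limma, the lowest of 20 alternatives).

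Segment 2 was compared with Segment 1 within specimens. Hba-a1 was lower in Segment 2 in 5 of 6 specimens, by -0.34 and -0.90 in the 2 Sham specimens, -1.01 in Gel specimen 1 and -0.60 and -1.53 in the 2 CuNZ@Gel specimens, and was higher by 0.66 in Gel specimen 2. The mean difference of -0.62 (SE 0.28, 95% interval -1.32 to 0.07) did not pass (adjusted p = 0.370 in limma, n = 6 specimens), where 1.93% of targets did. It passed with edgeR on recovered counts (-0.80, adjusted p = 0.00112) and in limma without Gel specimen 2 (-0.88, adjusted p = 8.4e-08), and in no other of the 19 alternatives, whose adjusted p ran from 8.4e-08 to 0.602. The difference was -0.38 without the CuNZ@Gel area at 185.8 (adjusted p = 0.225 in limma).

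For Hbb-b2 the segment difference in Sham, where it was measurable, was 0.09 in specimen 1 and -0.76 in specimen 2. The average was -0.33, and the direction was not settled. Over all specimens the difference was 0.14 for Hbb-b2, -0.02 for Alas2 and -0.41 for Slc4a1, values that rest wholly or mostly on areas below background. Whether the segment difference depended on treatment was tested as an interaction, which 0.0507% of targets passed. Hba-a1 did not, with an adjusted p of 0.970 in limma. Segment 2 was also the shallower segment, and the part of depth in these values was not tested.

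**Figure D3:**
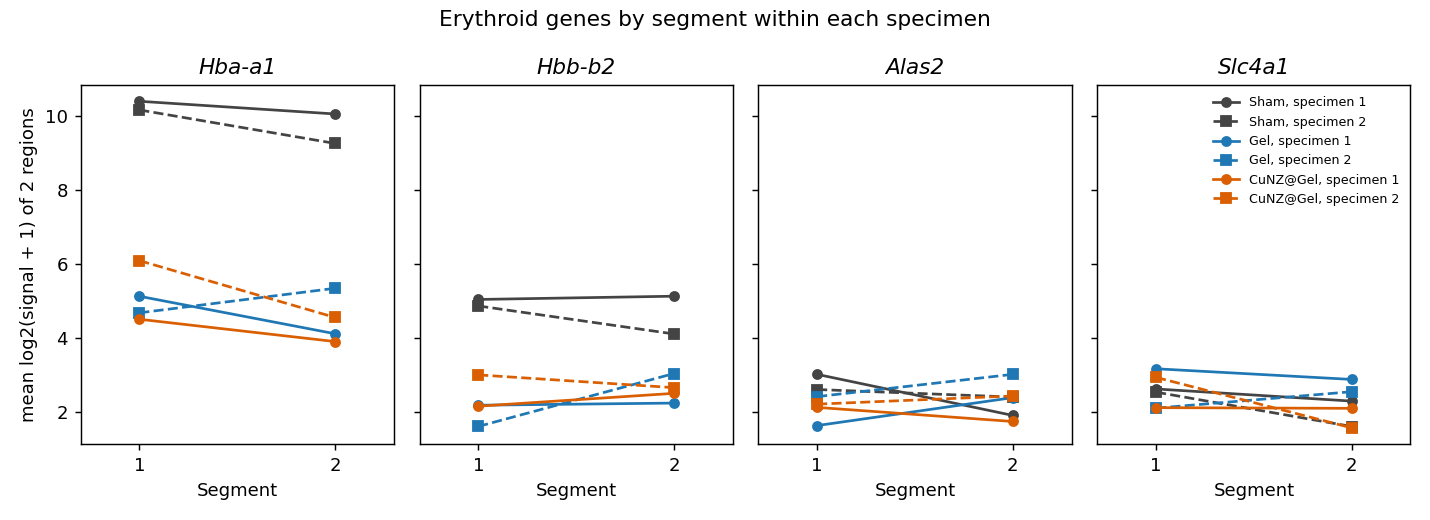
Mean log2(signal + 1) of the 2 regions of a specimen in Segments 1 and 2, 1 line per specimen (solid for specimen 1, dashed for specimen 2), coloured by treatment. Hba-a1 is lower in Segment 2 in 5 of 6 specimens, and the lines of the 2 Sham specimens lie above those of the hydrogels.

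The areas of a specimen differed widely in Hba-a1. The 2 regions of a specimen and segment differed by 0.08 to 2.92 log2 units (median 0.86 over 12 pairs), and the 2 segments of a region by 0.12 to 2.95 (median 0.90). The 2 specimens of a treatment differed by 0.39 to 1.12, and the largest gap between treatment means, the contrast that chose the gene, was 5.20. For Hbb-b2 the medians were 0.74 between regions and 0.80 between segments, the specimens differed by 0.11 to 0.60, and the largest treatment gap was 2.52. For Alas2 and Slc4a1 the largest treatment gaps, 0.36 and 0.49, were within the range of specimen differences, which reached 0.71 and 0.70.

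Other genes of red cell formation, heme synthesis and haemoglobin disposal were read from 6 lists that hold 97 measured genes beside the members, of which 95 were kept for fitting and 37 were above background. Their calls were few: in Gel minus Sham 0 rose and 2 fell (2.11% of the 95, against 2.42% of all targets), and in CuNZ@Gel minus Sham 0 rose and 3 fell (3.16%, against 1.31%). Both comparisons share the Sham specimens. The median difference of the 95 was -0.07 in Gel and -0.05 in CuNZ@Gel, beside 0.06 and 0.04 over all targets kept. Over the 37 above background it was -0.22 and -0.23, beside -0.15 in both comparisons over all such targets. None of the 95 passed in CuNZ@Gel minus Gel or in the interaction in limma, where 6 and 5 had an unadjusted p under 0.05. Over all 19728 targets, 1322 and 1114 had such a p in these comparisons. Against Sham, 2392 of the 19728 had it in Gel and 2083 in CuNZ@Gel, beside which the unadjusted counts of the lists below are to be read. In CuNZ@Gel minus Gel 1 passed with edgeR and 0 with DESeq2.

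Among the other globin genes 1 was above background in at least 4 areas, so a repeat of the adult pair's pattern could hardly be seen. Of 8 kept for this list, which also holds the alpha chain chaperone gene Ahsp, 0 passed in either comparison with Sham in limma, and 0 had an unadjusted p under 0.05. The theta-like gene Hbq1b, the brightest of them, differed by 0.27 in Gel (adjusted p = 0.760 in limma) and 0.06 in CuNZ@Gel (adjusted p = 0.966), and was above background in 7 areas. The embryonic and fetal-type genes Hba-x, Hbb-y, Hbb-bh1 and Hbb-bh2, together with Hbb-b1, Hbq1a and Ahsp, were above background in 0 of 24 areas.

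Heme synthesis genes did not change past the threshold, with 0 of 14 called in either comparison with Sham in limma (1 in Gel and 2 in CuNZ@Gel at an unadjusted p under 0.05). The brightest were Tmem14c, a porphyrin transporter of mitochondria (-0.45 in Gel, adjusted p = 0.280; -0.28 in CuNZ@Gel, adjusted p = 0.655, limma), Urod, a decarboxylase of the pathway, and Abcb10, a mitochondrial transporter. In the red cell membrane list 0 of 21 were called against Sham in limma (2 in each comparison at an unadjusted p under 0.05). Its brightest genes were Gypc, a glycophorin that many cells make, Aqp1, a water channel of red cells and vessel lining, and the glucose transporter gene Slc2a1. Aqp1 had the widest gaps of the list, -1.96 in Gel and -1.996 in CuNZ@Gel, but its spread between specimens was also wide (SE 0.80) and it did not pass (adjusted p = 0.497 and 0.542 in limma). Its signal was 18.4 to 112.5 in Sham, 7.49 to 128.8 in Gel and 6.13 to 33.1 in CuNZ@Gel, so the treatments overlapped. Other genes of the red cell skeleton and surface were uneven. Epb41, a skeleton protein gene that other cells also use, was above background in 10 areas and the urea transporter gene Slc14a1 in 16, while the ankyrin gene Ank1, Epb42 and Rhag were above it in 0 of 24. These 5 were chosen after their values were seen.

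Among erythroid regulators 0 of 17 were called against Sham in limma (1 in each comparison at an unadjusted p under 0.05). The red cell master regulators Gata1 and Klf1, the erythropoietin receptor Epor and the transferrin receptor Tfrc were above background in 0 of 24 areas. The brightest of the list were the kinase Jak2, which acts downstream of many cytokine receptors, Tal1, a factor of blood and endothelial cells, and Zfpm1, a partner of GATA factors. In the list of red cell enzymes and maturation 1 of 18 fell in each comparison with Sham. Prdx2, a peroxide-removing enzyme abundant in red cells and made widely, fell by 0.64 in Gel (SE 0.19, adjusted p = 0.0380 in limma), a call lost under 12 of 20 alternatives. Blvrb, a biliverdin and flavin reductase, fell by 0.94 in CuNZ@Gel (SE 0.19, adjusted p = 7.3e-04 in limma), a call lost under 4 of 20. The brightest of the list was Bnip3l, which clears mitochondria from maturing red cells, at -0.16 in Gel and -0.08 in CuNZ@Gel (adjusted p = 0.816 and 0.937 in limma).

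Among genes of haemoglobin clearance, 1 of 17 fell in Gel and 2 of 17 in CuNZ@Gel, and these were ferritin subunits. Ftl1, the ferritin light chain, ranged from 423.3 to 677.0 in Sham (median 567.7), from 224.8 to 398.6 in Gel (median 312.2) and from 239.2 to 522.6 in CuNZ@Gel (median 306.5). Every Gel area was below every Sham area, while CuNZ@Gel overlapped Sham. It fell by 0.82 in Gel (adjusted p = 9.5e-04 in limma) and by 0.81 in CuNZ@Gel (adjusted p = 0.00242), calls lost under 3 and 7 of 20 alternatives. Fth1, the ferritin heavy chain and the brightest of the list, fell by 1.17 in CuNZ@Gel (adjusted p = 0.00104 in limma), a call lost under 7 of 20, and was at -0.67 in Gel (adjusted p = 0.0960). Without Sham specimen 1 all of the calls of Prdx2, Blvrb, Ftl1 and Fth1 were lost, with differences of -0.69 for Prdx2 and -0.65 for Ftl1 in Gel, and -0.72 for Blvrb, -0.78 for Fth1 and -0.64 for Ftl1 in CuNZ@Gel (adjusted p from 0.185 to 0.465 in limma). Prdx2 was also lost without Sham specimen 2, Gel specimen 1 or either CuNZ@Gel specimen (-0.64 to -0.53). In CuNZ@Gel, Blvrb and Ftl1 were also lost without either CuNZ@Gel specimen (-0.92 and -0.96 for Blvrb, -0.65 and -0.98 for Ftl1), and Fth1 without CuNZ@Gel specimen 1 (-0.97). The scavenger receptor gene Cd163, haptoglobin Hp, heme oxygenase Hmox1 and the iron exporter Slc40a1 were above background in 0 of 24 areas. The same held for Krt5 and Krt14 of keratinocytes and for Pecam1 and Vwf of the vessel lining, while Sox18 and Plvap of that lining were above it in 24. Whether these probes read the rat RNA was not tested, so a count of 0 does not show that a gene was off. Of the 17 genes of the list, 8 were above background in at least 4 areas.

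**Figure D4:**
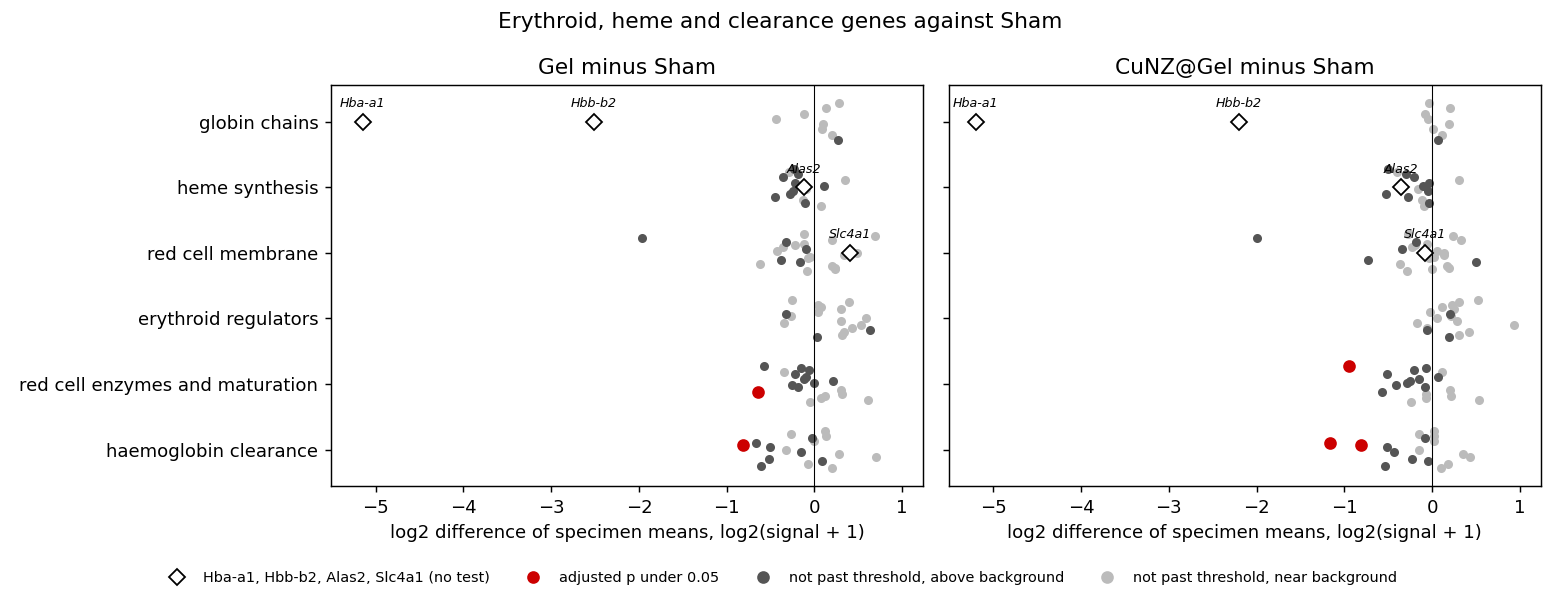
Log2 difference from Sham of the genes of 6 lists in Gel (left) and CuNZ@Gel (right), on the log2(signal + 1) scale; open diamonds are the 4 members, which were not tested, red points have adjusted p under 0.05 in limma, dark grey points are above background in at least 4 areas and light grey points are not. Hba-a1 and Hbb-b2 lie far to the left of the other genes of their lists, and the isolated grey point near -2 is Aqp1, which did not pass.

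Between segments 2 of the 95 genes fell in Segment 2 and 0 rose (2.11%, against 1.93% of all targets, of which 314 fell and 67 rose). Scaled to the total count instead, 134 targets fell and 124 rose, and of the 95 genes 0 fell and 1 rose. Aqp1 fell by 0.73 (SE 0.17, adjusted p = 0.00977 in limma), a call lost under 9 of 19 alternatives, and Lrp1, the receptor that takes up heme bound to hemopexin among many ligands, fell by 0.41 (SE 0.11, adjusted p = 0.0194), a call lost under 6 of 19. For Aqp1 the call was lost without either Sham specimen 2 (-0.63, adjusted p = 0.0752), CuNZ@Gel specimen 1 (-0.75, adjusted p = 0.0713) or Gel specimen 2 (-0.51, adjusted p = 0.124), and for Lrp1 without Sham specimen 2 (-0.37, adjusted p = 0.100) or Gel specimen 1 (-0.34, adjusted p = 0.128), all in limma.

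Markers of the other cells and fluids that reach a wound with blood were set beside Hba-a1. The summed signal of 14 platelet genes was 50.5 to 86.6 in Sham, 63.4 to 102.8 in Gel and 61.3 to 74.2 in CuNZ@Gel, and 2 of the 14, Nrgn and Itgb3, were above background in at least 4 areas. Itgb3, an integrin of platelets that other cells also make, fell by 1.03 in CuNZ@Gel (adjusted p = 0.0213 in limma), while the platelet genes Pf4 and Ppbp were above background in 0 areas. The summed signal of 15 neutrophil genes was 49.1 to 76.0 in Sham, 59.4 to 92.7 in Gel and 59.4 to 101.2 in CuNZ@Gel, where Fcnb rose by 1.05 (adjusted p = 0.0439 in limma). S100a9 and S100a8 were the brightest of that list, and Fcnb, the next, was above background in 2 of 24 areas. Of the 15 neutrophil genes, 1 was above background in at least 4 areas. Of 10 plasma protein genes of the liver, Apoa2, Fgg and Apoa1 among them, 0 were above background. In none of these platelet, neutrophil and plasma protein lists did the Sham range of the sum lie above both hydrogel ranges. Most genes of these lists were below background, so the sums could hardly separate the treatments and nothing is read from this.

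The vessel lining was read from 16 endothelial genes, led by Sox18, Plvap and Erg. Of the 16, 5 were above background in at least 4 areas. The summed signal of the 16 was 181.9 to 355.4 in Sham, 213.6 to 566.0 in Gel and 119.9 to 400.9 in CuNZ@Gel. Against Sham 0 of 16 were called in limma. At an unadjusted p under 0.05 there were 6 in Gel and 5 in CuNZ@Gel, beside 2392 and 2083 of all 19728 targets. Between segments 3 of 16 fell in Segment 2, among them Sox18 by 1.08 (adjusted p = 2.6e-09 in limma), the same segment in which Hba-a1 was lower in 5 of 6 specimens. Macrophage genes, led by Lyz2, Cd68 and C1qc, summed to 645.9 to 1525 in Sham, 856.4 to 1615 in Gel and 870.8 to 1178 in CuNZ@Gel. Against Sham 1 of 15 rose in Gel, and in CuNZ@Gel 1 rose and 2 fell. In Segment 2, 3 of 15 of them fell. Fibroblast genes, led by Col3a1, Lum and Col1a2, summed to 11009 to 33156 in Sham, 2015 to 11666 in Gel and 7659 to 12978 in CuNZ@Gel, and 3 of 12 fell in Gel, 2 of 12 in CuNZ@Gel and 2 of 12 in Segment 2. Lymphocyte genes (Cd2, Cd3e, Cd3g) summed to 55.2 to 88.0 in Sham, 55.4 to 107.7 in Gel and 42.9 to 77.7 in CuNZ@Gel, and 1 of 12, Cd2, fell in each. Keratinocyte genes (Krt17, Dsg3, Krt14) were above background in at least 4 areas for 0 of 12, and muscle genes (Acta1, Tnnt3, Ckm) for 2 of 10. The same count was 8 of 15 for macrophage, 9 of 12 for fibroblast and 2 of 12 for lymphocyte genes. Some fibroblast genes and Cd2 thus fell in both hydrogels, where Hba-a1 was low. In CuNZ@Gel 2 of 15 macrophage genes and Itgb3 also fell, as did 1 of 10 muscle genes in Gel. Rises were 1 of 15 macrophage genes in each hydrogel and Fcnb in CuNZ@Gel. Some endothelial, macrophage, fibroblast and platelet genes (1 of 13, Itgb3) fell in the segment where Hba-a1 was lower. That direction was general among the 5554 targets above background, whose median segment difference was -0.20, and 1.93% of all targets passed there. Over 19 alternatives the number of targets that passed between segments ran from 0, without trend and robust moderation, to 491. The calls of these marker lists were not followed through the alternatives. Against Sham, 2.42% of all targets passed in Gel and 1.31% in CuNZ@Gel. The part of these cell types in the level of Hba-a1 was not tested.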

How the data were processed

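Areas were profiled with GeoMx probes on fixed skin sections, per the labels' protocols. The authors deposited 1 scaled signal per target and area. The software used, the probe filter and the scaling were not given in the sources used here. Counts were recovered as multiples of the lowest value of an area.

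The signal was averaged as log2(signal + 1) over the 4 areas of a specimen (over 2 for segments). Targets brighter than the negative probe in 4 or more areas were fitted with limma 3.58.1 (R 4.3.3, trend and robust), with Benjamini-Hochberg adjustment and a threshold of 0.05. In the treatment fit the residual degrees of freedom were 3, and the prior added a median of 133 over targets. Robust moderation sets the prior by target, and that of Hba-a1 was much smaller, which widened its interval. Segment comparisons kept specimen as a block. The script was tested on simulated data. Recovered counts were also tested with edgeR 4.0.16 and DESeq2 1.42.0.

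Intervals are at 95%. Specimens of the same number correlated at 0.004, -0.03 and -0.03, so no pairing by number was seen, though with 2 specimens a treatment it could be missed. The 4 genes and all lists were chosen with earlier results of these data known. Named genes were the members, listed genes past the threshold, the 3 brightest of each list and the 8 targets most like Hba-a1 and Hbb-b2. Some others were named as known genes of a list, and Epb41, Slc14a1, Ank1, Epb42 and Rhag after their values were seen. No columns were left out.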

Additional observations from a re-analysis of the deposited data

Results flagged for a closer look

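Within a treatment, an area was singled out where its gap to the next was large against the range of the 8 areas (Dixon's test at 95%). The test was run on the linear signal, and 12 groups were read. Its nominal rate of about 1 in 20 groups assumes independent, normally distributed values. These areas share specimens and many hold low counts, so that rate need not hold and the flags are a description. Hba-a1 in CuNZ@Gel had its highest area at 185.849, in Segment 1 of region 1 of specimen 2, with the next at 35.6 (gap over range 0.857). Hbb-b2 was highest in the same area, at 12.2642 with the next at 6.81 (0.533), on 13 counts. Hbb-b2 in Gel had its highest area at 12.2642, in Segment 2 of region 2 of specimen 2, with the next at 6.13 (0.58), on 6 counts. Hba-a1 in that Gel area was 63.4, the second highest of its treatment.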

How the results depend on the processing

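The signs of the Hba-a1 and Hbb-b2 differences from Sham were kept in all 20 alternatives, from -5.54 to -4.77 and -5.76 to -4.64 for Hba-a1 in Gel and CuNZ@Gel. Hbb-b2 moved in size, to -1.81 and -1.64 with a pseudocount of 5, -3.25 and -3.03 with the receptor median subtracted, -3.24 and -2.71 with edgeR and -3.29 and -2.72 with DESeq2. Hba-a1 between segments passed with edgeR (-0.80). Leaving out each specimen in turn gave -5.76 to -4.64 for Hba-a1 in CuNZ@Gel and -0.88 to -0.44 between segments. The causes of these changes were not tested. The replicate block (specimen number) left Hba-a1 at -5.15 in Gel, with 500 targets called, and gave 3 pathway genes called in Gel against 2. Prdx2, Ftl1, Blvrb and Fth1 kept the calls they had without it. As far as the labels say, these specimens share only a number.

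Without trend and robust moderation the counts of targets called were 176 in Gel, 44 in CuNZ@Gel, 75 between the hydrogels, 0 between segments and 0 in the interaction. The receptor median subtracted gave 297, 91, 120, 217 and 2. DESeq2 gave 152, 59, 55 and 142. Quantile normalization gave 162 in CuNZ@Gel and 130 between segments, and areas as samples gave 460 in CuNZ@Gel and 0 in the interaction. The interaction count was 3 with a pseudocount of 5, 1 with targets above background and 5 without the highest CuNZ@Gel area. Leaving out specimens gave 271 to 752 in Gel, 72 to 458 in CuNZ@Gel, 95 to 293 between the hydrogels, 198 to 404 between segments and 0 to 36 in the interaction.

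The count of pathway genes called in Gel was 1 under means of linear values, quantile normalization, scaling to the total, no trend and robust moderation, the receptor median subtracted, edgeR and DESeq2, and 5 with areas as samples. In CuNZ@Gel it was 1 under quantile normalization and without trend and robust moderation, and 6 with areas as samples. Between the hydrogels it was 1 with edgeR. Between segments it was 4 without a filter, 1 under means of linear values, quantile normalization and areas as samples, 1 under scaling to the total (1 higher and 0 lower), and 0 without trend and robust moderation and with DESeq2. Leaving out specimens gave 0 to 5 in Gel, 0 to 7 in CuNZ@Gel, 0 to 1 between the hydrogels and 0 to 3 between segments. Each specimen left out leaves a lone specimen that is assumed to vary like the others. Count models for the interaction were not run. Signal at or below background limits Alas2 and Slc4a1 in all areas and Hbb-b2 in hydrogel areas.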

Other observations

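Over all 24 areas, treatment differences included, the targets most correlated with Hba-a1 after Hbb-b2 (r = 0.94) were H2-Ab1 (0.92), Adam19 (0.89), Igfbp4 (0.87) and Ftl1 (0.86), a reading chosen after the values were seen. H2-Ab1, a class II antigen presentation gene, had a Sham median of 185.0, a Gel median of 3.32 and a CuNZ@Gel median of 4.81. Igfbp4, a binding protein of insulin-like growth factors, had medians of 1531, 161.0 and 380.5 in the same order. Adam19, a membrane protease, had medians of 132.1, 66.4 and 75.8. Once treatment means were subtracted, H2-Ab1, Adam19, Igfbp4 and Ftl1 were not among the 8 targets most like Hba-a1.

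By treatment, the segment difference of Hba-a1 averaged -0.62 for Sham, -0.17 for Gel and -1.07 for CuNZ@Gel. That of Hbb-b2 averaged -0.33, 0.74 and 0.0014 in the same order, and its Sham specimens had opposite signs. The share of targets at the lowest value of 1 count was 0.11% to 6.24% in Segment 1 and 0.11% to 46.9% in Segment 2.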
